A study of Mus musculus with 2 samples.

Results

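Noncycling CD8 T cells with high transcript levels of the checkpoint receptors *Pdcd1* (PD-1), *Lag3* and *Havcr2* (TIM-3) made up 440 of the 5022 cells in this scRNAseq data set of tumor-infiltrating immune cells, 278 in the library labelled *Maoa* WT and 162 in the library labelled *Maoa* KO. They were chosen cell by cell from UMIs (unique molecular identifiers, each standing for 1 captured transcript). A cell was kept if *Cd3d*, *Cd3e* and *Cd3g* summed to 2 UMIs or more and *Cd8a* and *Cd8b1* to 2 or more, and if it had 0 of *Foxp3*, fewer than 3 of the division genes *Mki67*, *Top2a* and *Birc5* together, at least 3 of *Pdcd1*, *Lag3* and *Havcr2* together, and fewer than 5 of the myeloid genes *Csf1r*, *C1qa*, *C1qb*, *C1qc* and *Cd14* together. These genes chose the cells, so their levels are given as a description only. The cells came from B16-OVA tumors, a mouse melanoma line made to express ovalbumin as an antigen, grown under the skin of *Maoa* WT and *Maoa* KO mice and taken on day 14, with no drug given. The *Maoa* KO mice carry a hypomorphic allele in all cells of the host (*Maoa* tm1Shih, from a 129S strain, backcrossed to C57BL/6J), the tumor line does not carry it, and mice of the study were 8 to 12 weeks old and female unless stated otherwise. For each genotype 10 tumors were pooled, live CD45.2+ leukocytes were sorted, 10000 were loaded, and 1 library was made. No genotype thus had a replicate, no test between genotypes was possible, and every interval below is an exact 95% interval that covers counting error only.

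CD8 T cells recognize antigen on tumor cells through the T cell receptor and kill by releasing perforin and granzymes from granules, while secreting IFN-γ and chemokines. When antigen persists, as in a growing tumor, they take on a state called exhaustion, in which PD-1, LAG-3 and TIM-3 stay high, the factor TOX is made, and the program of naive and memory cells is shut down. Effector molecules are often still transcribed in this state, and antibodies that block PD-1 act on cells of this lineage. MAO-A, the product of *Maoa*, breaks down serotonin and other monoamines.

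The library labelled WT held 2392 cells and the library labelled KO 2630, with medians of 9887.5 and 6945.5 UMIs per cell, and 13 barcodes occurred in both. *Maoa* had 7 UMIs in the library labelled WT and 15 in the one labelled KO (1 and 0 in the cells described here), so the targeted gene did not bear out the labels, and each direction between the libraries rests on the labels alone. The 278 and 162 checkpoint-high cells held 3211906 and 1570142 UMIs, with medians of 10817 UMIs (range 3572 to 31306) and 8216 UMIs (range 2949 to 40494) per cell. Of the shared barcodes, 1 fell among the checkpoint-high cells of the library labelled WT and 2 among those of the library labelled KO.

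The receptor genes of the rule were present as the rule requires. *Pdcd1* was detected in 96.0% of the WT-labelled and 93.8% of the KO-labelled cells, *Lag3* in 93.9% and 93.8%, and *Havcr2* in 57.2% and 53.1%. In myeloid cells (at least 5 UMIs of the myeloid genes and 0 of the CD3 genes; medians of 9216 and 8702.5 UMIs) *Pdcd1* was detected in 7.65% and 6.01% and *Lag3* in 10.1% and 5.38%. All of *Pdcd1*, *Lag3* and *Havcr2* were present in 53.2% of the WT-labelled and 48.1% of the KO-labelled checkpoint-high cells, and only 1 of the 3 genes in 6.12% and 7.41%. Summed over cells, *Pdcd1* stood at 517 and 482 CPM (UMIs per 1000000 UMIs of the same cells), *Lag3* at 551 and 667 CPM, and *Havcr2* at 117 and 111 CPM, levels that the rule sets in part. The marker that the rule did not use was *Cxcr6*, a chemokine receptor of tissue-resident and tumor T cells, which was at 534 CPM in the library labelled WT and 558 CPM in the library labelled KO, against 3.84 and 3.46 CPM in myeloid cells.

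Markers of other cell types were present in the same cells. The neutrophil list differed most between the libraries, at 182 CPM with a UMI in 65.5% of cells under the WT label and 9.55 CPM with a UMI in 8.02% under the KO label. The macrophage and monocyte list summed to 754 and 792 CPM against 15869 and 23749 CPM in myeloid cells, the NK cell list to 307 and 385 CPM, the B cell list to 5.29 and 9.55 CPM, and the melanoma list to 2.80 and 1.91 CPM. The dendritic cell list summed to 1461 and 2095 CPM, and 7 WT-labelled and 6 KO-labelled cells with at least 50 UMIs of that list each held 60.3% and 65.8% of it. The list of CD4 and regulatory T cells summed to 172 and 178 CPM, with *Foxp3* at 0 by the rule and *Cd4* in 6 and 5 cells. *Cd163l1* and *Il17a*, which mark γδ T cells, were at 0 in both libraries. The part of these cells in the results was not tested, except where values without them are given.

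Checkpoint-high cells made up a smaller share of the CD8 T cells in the library labelled KO. Of noncycling CD8 T cells, 67.5% (278 of 412; interval 62.7 to 72.0%) were checkpoint-high in the library labelled WT and 30.3% (162 of 534; 26.5 to 34.4%) in the library labelled KO. As a share of all cells they were 11.6% (10.4 to 13.0%) and 6.16% (5.27 to 7.15%). The remaining noncycling CD8 T cells had no UMI of the 3 receptors (checkpoint-negative, 98 and 307 cells) or 1 to 2 UMIs (checkpoint-low, 36 and 65 cells). Checkpoint-negative cells were 14.6% of all CD8 T cells in the library labelled WT and 48.5% in the library labelled KO, and cycling CD8 T cells (at least 3 UMIs of the division genes) were 38.7% and 15.6%. CD8 T cells of every kind were 28.1% and 24.1% of the libraries. Because a rule on UMIs finds fewer cells at low depth, the shares were also taken after each cell was thinned to 3000 UMIs. This gave 45.1% and 24.8% of noncycling CD8 T cells. Thinning acts on every limit of the rule, so cells counted as cycling at full depth can count as noncycling here. The order of the libraries was the same. Which of the pooled tumors supplied the cells cannot be told apart.

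The cells on either side of the threshold of 3 UMIs were few, and their levels are given without intervals. The 13 WT-labelled and 12 KO-labelled cells with a sum of exactly 3 had *Tox* at 221 and 140 CPM, and the 16 and 17 cells just outside, with a sum of 2, had it at 122 and 107 CPM. *Cxcr6* was at 404 and 264 CPM just inside and at 387 and 452 CPM just outside. *Tcf7*, the factor that marks progenitor and memory T cells, was at 0 and 31.1 CPM inside and at 35.8 and 71.4 CPM outside. Of these 3 genes, *Tox* was higher inside and *Tcf7* lower inside in both libraries, while *Cxcr6* took opposite sides. Among the other genes compared, *Prf1* was higher and *Il7r* lower inside in both libraries. *Gzmb*, *Ccl5* and *Klf2* took opposite sides.

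Within each library, the checkpoint-high cells were set against the checkpoint-negative CD8 T cells of the same tumors, and a gene was called when its CPM differed by at least 2-fold with an interval that left out 1 in both libraries. Of 5241 genes with at least 100 UMIs, 465 (8.87%) were higher and 125 (2.39%) were lower in the checkpoint-high cells. The rule drew this contrast, so the values describe the cells and are not a test. The checkpoint-negative cells were shallower (medians of 5176.5 and 4891 UMIs), and the median gene already stood at a log2 ratio of 0.38 in the library labelled WT and 0.32 in the library labelled KO. With ratios centred on that median, 245 genes were higher and 222 lower, and counts called centred below use these ratios.

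Most other inhibitory receptors were also higher. Of 9 other inhibitory receptors measured, 6 were called higher (5 centred) and 0 lower, with a median log2 ratio of 1.72 in the library labelled WT and 1.79 in the library labelled KO. They included *Entpd1* (CD39, which breaks down extracellular ATP; 2.74 and 3.10), *Cd244* (2B4; 2.45 and 1.86) and *Cd200* (2.32 and 2.52). Of 11 costimulatory receptors measured, 4 were called higher and 0 lower, with medians of 0.84 and 1.47. *Tnfrsf9* (4-1BB), which is induced by antigen receptor signalling, had log2 ratios of 5.10 and 4.16, and *Tnfrsf4* (OX40) of 4.15 and 4.80.

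Most effector genes measured were higher. Of 16 cytotoxic granule genes, 11 were called higher and 0 lower (median log2 ratio 2.22 and 2.13), and of 11 chemokines and cytokines, 7 were higher and 0 lower (2.07 and 2.08). *Gzmb*, the granule protease that starts apoptosis in target cells, had log2 ratios of 2.58 and 4.09, and *Prf1*, perforin, of 3.82 and 3.52. *Nkg7*, a granule membrane protein, was at 1.34 and 1.70, and at 0.96 and 1.39 when centred, short of the fold. Centred, 9 granule genes and 6 chemokines and cytokines were called higher. The inflammatory chemokines *Ccl3* (4.72 and 5.11) and *Ccl4* (3.33 and 4.40) were higher by more than *Ifng* (2.84 and 3.42). *Csf1*, the growth factor of macrophages, had a log2 ratio of 2.66 in the library labelled WT and was at least 17.2-fold higher in the library labelled KO, where the checkpoint-negative cells had 0 UMIs.

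The genes with the largest mean ratios were mostly not receptors. *Gldc*, a mitochondrial enzyme that cleaves glycine, had no UMI in the checkpoint-negative cells of either library and was at least 13.9-fold higher in the library labelled WT and at least 25.3-fold in the one labelled KO. The adhesion receptor *Adgrg1* (GPR56) was likewise at least 6.58-fold and 22.8-fold higher, and the secreted protein *Igfbp7* at least 5.89-fold and 14.4-fold. *Nrn1* (neuritin; log2 ratios of 4.94 and 6.53), *Nrgn* (neurogranin; 4.91 and 6.11), *Tff1* (trefoil factor 1; 5.27 and 6.25), *Serpine2* (a protease inhibitor; 4.06 and 6.40) and *Ccl1* (the ligand of CCR8; 3.76 and 7.45) were among the 15 largest, as were *Ccl3*, 2310031A07Rik and the granzymes *Gzmc* to *Gzmf*. *Ociad2* was at least 4.29-fold higher in the library labelled WT.

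Genes of circulating naive and memory T cells were lower. Of 15 progenitor and memory genes measured, 12 were called lower (13 centred) and 0 higher, with a median log2 ratio of −3.37 in the library labelled WT and −2.45 in the library labelled KO. *Tcf7* stood at −5.21 and −4.21, *Lef1*, its partner factor, at −4.17 and −4.38, and *Il7r*, the receptor for the survival cytokine IL-7, at −3.37 and −4.17. *Klf2* and *S1pr1*, named for their size of change, were lower too. *Klf2*, the factor that keeps *S1pr1* on, was at −3.67 and −4.82. *S1pr1*, the exit receptor for lymph, had a log2 ratio of −3.79 in the library labelled WT, and in the library labelled KO it had 0 UMIs against 129 in the checkpoint-negative cells, at least 40.8-fold lower. *Bcl2*, a survival gene, was at −2.13 and −2.20.

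**Figure D1:**
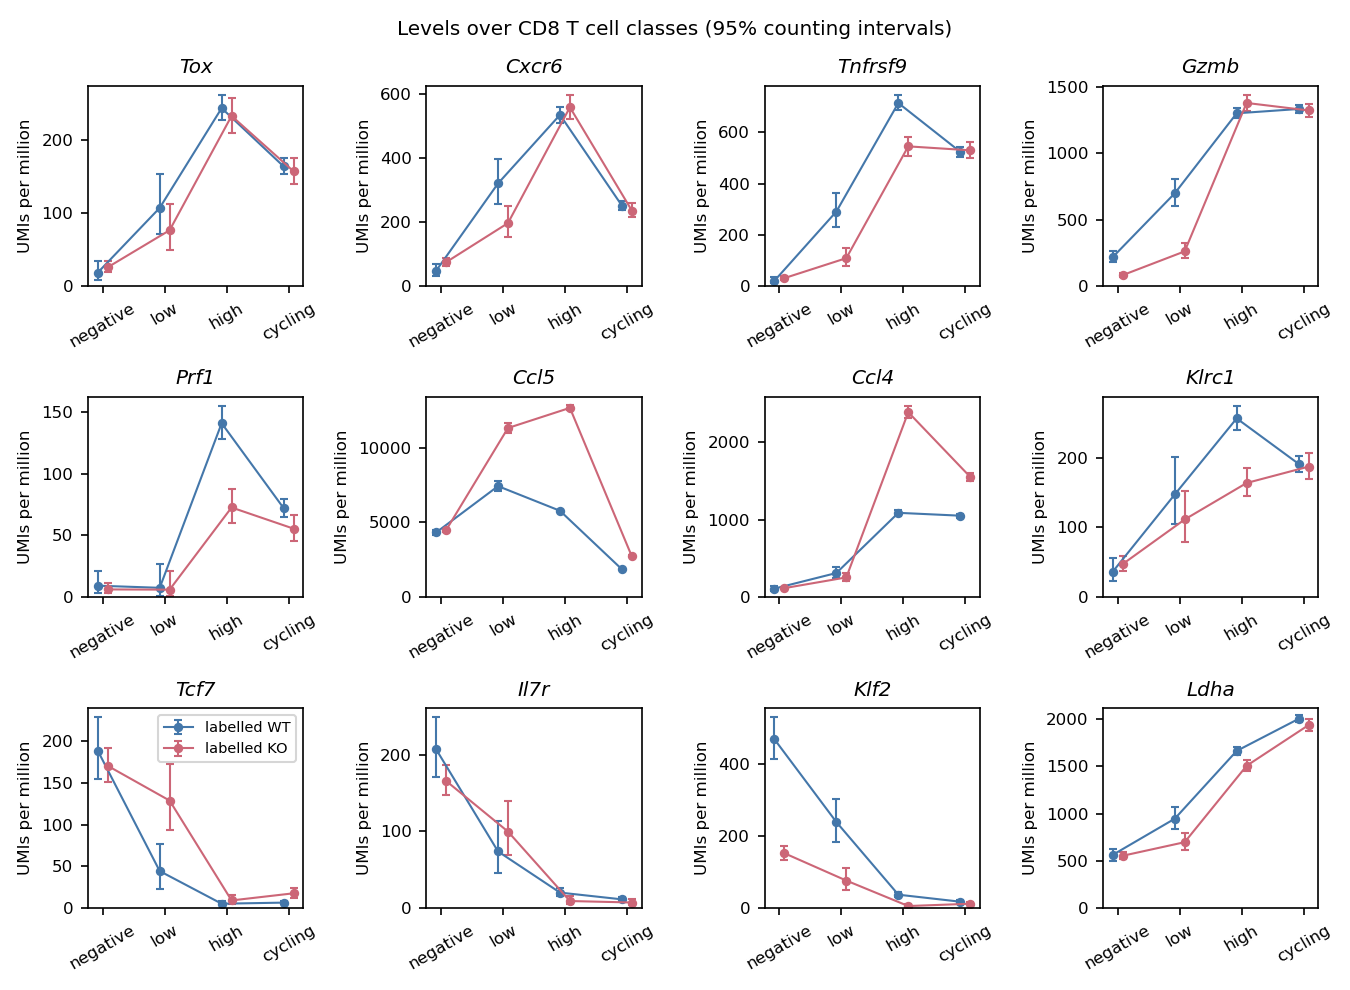
Level of 12 genes in CPM (UMIs per 1000000 UMIs of the same cells) in checkpoint-negative, checkpoint-low, checkpoint-high and cycling CD8 T cells, 1 line per library (WT and KO labels), with bars for exact 95% Poisson intervals. *Tox*, *Cxcr6* and *Tnfrsf9* rise and *Tcf7*, *Il7r* and *Klf2* fall over the first 3 classes, and *Ccl5* is lowest in the cycling class in both libraries.

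The plot of levels over the 4 classes of CD8 T cells shows that the checkpoint-low cells lay between for *Tox*, *Cxcr6*, *Tnfrsf9*, *Tcf7* and *Il7r*. *Tox*, the factor of the exhaustion program, stood under the WT label at 18.1 CPM in checkpoint-negative, 107 in checkpoint-low and 243 in checkpoint-high cells, and under the KO label at 25.4, 76.1 and 232 CPM. *Tcf7* went from 189 to 44.1 and 4.98 CPM, and from 170 to 129 and 8.92 CPM. *Prf1* was at 7.36 and 5.85 CPM in checkpoint-low, 9.07 and 6.05 CPM in checkpoint-negative, and 141 and 72.6 CPM in checkpoint-high cells. Its checkpoint-low levels rested on 2 UMIs in each library and its checkpoint-negative levels on 5 and 10, too few to order these classes.

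Transcription factors and metabolism completed the picture. Of 22 factors of activation and exhaustion, 9 were called higher (7 centred) and 0 lower. *Tox* had log2 ratios of 3.68 and 3.18, *Rbpj*, the factor of the Notch pathway, 2.79 and 1.86, *Prdm1* (Blimp-1) 2.21 and 3.05, *Batf* 1.37 and 2.30 (0.99 and 1.99 centred, short of the fold), and *Id2* 1.74 and 1.68. Of 24 glycolysis and hypoxia genes, 15 were higher and 0 lower, with medians of 1.57 and 1.45. Among them were *Gapdh* (1.85 and 2.03), *Aldoa* (1.86 and 1.73), *Tpi1* (2.36 and 2.01) and *Ldha* (1.56 and 1.45). Centred, 13 glycolysis and hypoxia genes were higher and 1 was lower. Of 14 sterol and fatty acid synthesis genes, 6 were higher (3 centred) and 0 lower. Of 32 interferon response genes, 0 were called higher and 3 lower (7 centred), with medians of −0.43 and −0.19. Of 18 cycle genes outside the rule, 7 were higher (5 centred) and 0 lower although cells with 3 or more UMIs of the 3 division genes had been left out.

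**Figure D2:**
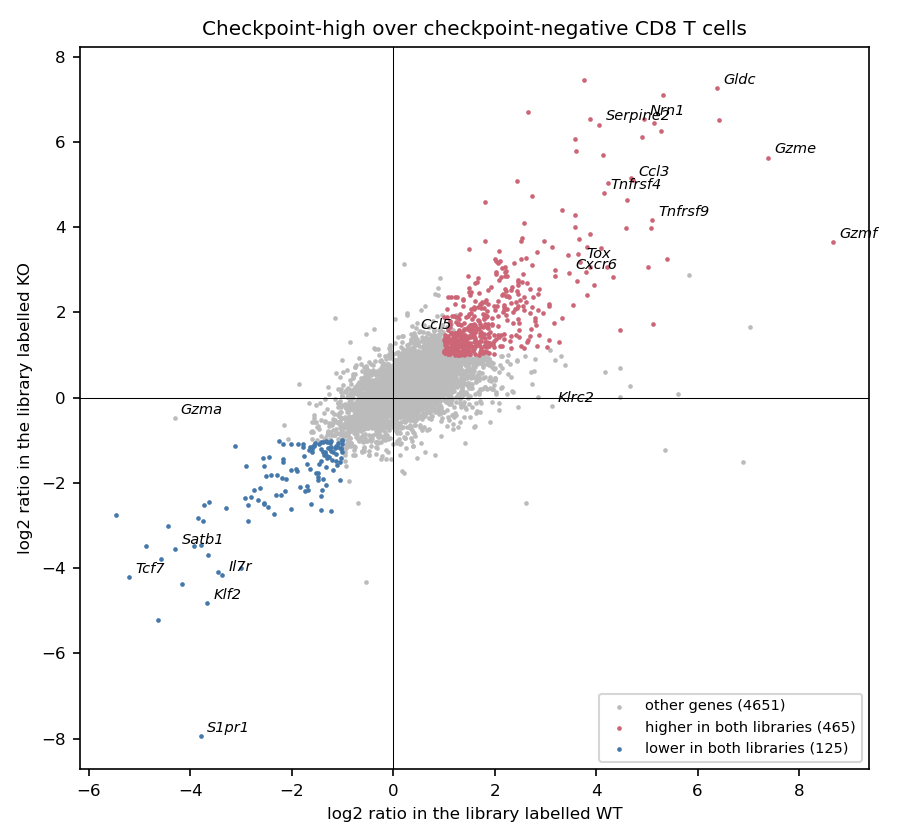
Log2 ratio of CPM in checkpoint-high over checkpoint-negative CD8 T cells for 5241 genes, with the library labelled WT on the x axis and the library labelled KO on the y axis (0.5 UMIs added). Red points are the 465 genes called higher in both libraries, blue points the 125 called lower and grey points the genes not called. The red and blue points lie in opposite corners, with *Tcf7*, *Klf2* and *Il7r* among the lowest.

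The plot of each gene's ratio in one library against the other gives the whole contrast, and called genes lie by definition on the same side in both libraries. Genes of the rule were left out of the counts.

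Set against cycling CD8 T cells, the checkpoint-high cells had few genes of their own. Of 6953 genes, 31 (0.446%) were at least 2-fold higher in both libraries and 307 (4.42%) were lower, among them 16 of 25 cycle genes outside the rule and none higher. Cycling cells were deeper (medians of 18740.5 and 19844 UMIs). *Ccl5* (RANTES, which attracts T cells and myeloid cells) was at 5768 CPM in checkpoint-high and 1845 CPM in cycling cells of the library labelled WT, and at 12664 and 2710 CPM in the library labelled KO, log2 ratios of 1.64 and 2.22. *Cxcr6* had log2 ratios of 1.09 and 1.25. Of 32 interferon response genes, 4 were higher and 0 lower. These were *Ifit1* (1.84 and 3.99), *Ifit3* (1.73 and 3.36), *Slfn1* (1.29 and 2.16) and *Trim30a* (1.09 and 1.30), and the median of the list was 0.64 and 0.84 against −0.07 and −0.05 for all genes. *Ifit1*, an RNA-binding antiviral protein, was at 43.9 and 27.4 CPM in checkpoint-high cells, 12.2 and 1.5 CPM in cycling cells, and 59.9 and 22.4 CPM in checkpoint-negative cells. Of the other genes named by the same rule, *Il4i1* had log2 ratios of 1.18 and 3.34 and *Ifi205* of 1.45 and 1.97, and both lost this direction when cells with dendritic cell markers were left out (mean of both libraries −1.90 and −0.82).

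Between the libraries, checkpoint-high cells were compared by their summed UMIs, and a gene was called at 1.5-fold or more with an interval that left out 1. Of 4275 genes with at least 100 UMIs, 117 (2.74%) were higher and 180 (4.21%) lower in the library labelled KO, and the median log2 ratio over all of them was −0.01. All log2 ratios that follow set the KO label over the WT label in checkpoint-high cells, unless another class is named. Some of these differences were not particular to the cells. Of the 180 lower genes, 33 were past the same fold in all of 6 classes of cells examined (checkpoint-high, checkpoint-low, checkpoint-negative and cycling CD8 T cells, myeloid cells, and NK cells, which had *Ncr1* and no CD3 UMI), and of the 117 higher genes, 1 was. Past the same fold in checkpoint-high, checkpoint-negative and cycling CD8 T cells were 46 of the 180 lower and 11 of the 117 higher genes. No minimum of UMIs was set in the other 5 classes, so for rare genes this can rest on a few UMIs against 0.

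The 1 higher gene past the fold in all 6 classes was *Apobec3*, a cytidine deaminase that restricts retroviruses. It stood at 56.3 CPM in the WT-labelled and 251 CPM in the KO-labelled checkpoint-high cells, a log2 ratio of 2.15, the largest among called genes with higher values in the library labelled KO. It was detected in 49.3% and 87.0% of the cells. The ratio was between 1.89 and 2.73 in the 6 classes, so it was not confined to checkpoint-high cells.

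*Tox*, which the rule did not use, was at 243 and 232 CPM, a log2 ratio of −0.06, and the median over cells was 213 and 202 CPM. *Entpd1* (0.22), *Cd160* (0.35) and *Ctla4* (−0.26) were not called, nor was *Tnfrsf9* (−0.39). Of 20 factors of activation and exhaustion tested, 1 was called higher and 0 lower, *Rel*, the NF-κB subunit c-Rel, at 0.77. Of 9 inhibitory receptors, 1 was higher, *Cd200* at 0.82, and 1 was lower, *Klrc1*. Of 11 costimulatory receptors, 2 were higher and 0 lower. These were *Cd226* (DNAM-1, 0.73, but 0.55 in thinned cells) and the tetraspanin *Cd81* (1.01, but 0.50 with a checkpoint threshold of 2), and 5 cells held 60.3% of the *Cd81* UMIs in the library labelled WT and 66.7% in the library labelled KO.

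*Ccl5* and *Ccl4*, chemokines made by T cells, were higher in the library labelled KO. Of 10 chemokines and cytokines tested, 4 were called higher and 0 lower, with a median log2 ratio of 0.44. *Ccl5* was at 5768 and 12664 CPM, a log2 ratio of 1.13 (interval 1.11 to 1.16), and *Ccl4* (MIP-1β, an inflammatory chemokine) at 1088 and 2390 CPM, a ratio of 1.14 (1.07 to 1.20). The median over cells was 4074 and 7807 CPM for *Ccl5* and 230 and 437 CPM for *Ccl4*. Both differences thus held for the middle of the cells and not only for a few of high level, and the ratios were 1.06 and 1.36 when the 2% of cells with most UMIs of the gene were left out. In checkpoint-low cells the same ratios were 0.61 for *Ccl5* and −0.30 for *Ccl4*, in checkpoint-negative cells 0.05 and 0.07, and in cycling cells 0.55 and 0.56. In NK cells *Ccl5* was at 0.20 and *Ccl4* at −1.35, and in myeloid cells at −0.05 and −1.75. The difference between these classes was not tested.

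*Ccl3* (MIP-1α) was at 1171 and 1699 CPM, a log2 ratio of 0.54 (0.46 to 0.61) that fell short of the fold, and at 1.06 without its top 2% of cells. *Ifng* was at 266 and 300 CPM, a ratio of 0.18 (0.01 to 0.34), and 0.65 without the top cells. With cells thinned at random to 4900 UMIs (262 and 134 cells were deep enough), *Ifng* was detected in 45.4% of the WT-labelled and 62.7% of the KO-labelled checkpoint-high cells. In unthinned myeloid cells it was detected in 6.73% and 2.85%. *Ccl1*, which was not on the list, was at 135 and 371 CPM (1.46) and was detected in 9.71% and 14.8% of cells. Its ratio was 3.12 without the top 2% of cells. *Spp1* (osteopontin) was at 282 and 1050 CPM (1.89), with 89.1% of its KO-labelled UMIs in 5 cells and a ratio of 0.18 without the top cells, and *Ccl9* was at 85.3 and 173 CPM (1.02, but 0.41 with cells weighted equally and 0.36 in thinned cells). *Spp1* and *Ccl9* are also made by macrophages, whose part in these values was not tested.

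**Figure D3:**
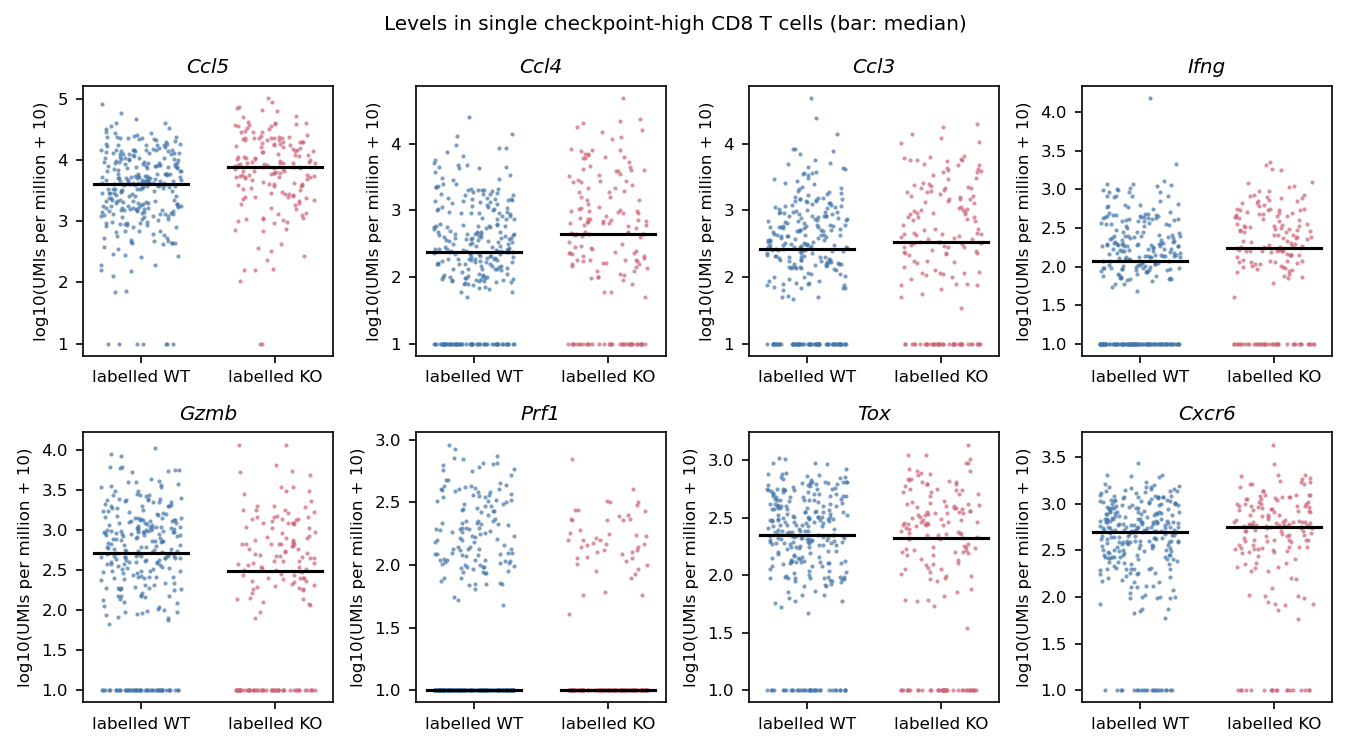
Level of 8 genes in each checkpoint-high cell, as log10 of CPM plus 10, for the 278 cells of the library labelled WT and the 162 of the library labelled KO; each point is a cell and the bar is the median. The medians of *Ccl5* and *Ccl4* are higher under the KO label, that of *Gzmb* is lower, and those of *Tox* and *Cxcr6* are close.

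The plot of single cells shows how wide each gene was spread within a library. *Ccl5* ran from 0 to 81648 CPM over the WT-labelled cells, and its middle 50% of cells lay between 1487 and 9211. In the library labelled KO that range was 2831 to 19377. The cells of the libraries overlapped for every gene shown.

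Several granule genes were lower in the library labelled KO. Of 16 tested, 7 were called lower and 1 higher, 6 had ratios above 0, and the median log2 ratio was −0.37. *Prf1* was at 141 and 72.6 CPM, a ratio of −0.95 (−1.27 to −0.66). *Lamp1* (CD107a), the granule membrane protein shown at the surface on release, was at 65.7 and 21.6 CPM, a ratio of −1.58 (−2.20 in thinned cells), and was also lower in cycling (−1.39) and checkpoint-negative (−0.92) cells. *Serpinb6b*, an inhibitor that shields the cell from granzymes, was at −0.59, and this call was lost with a checkpoint threshold of 5 UMIs (−0.54), in thinned cells (−0.50), with a myeloid limit of 2 (−0.44) and with centred ratios (−0.58). *Nkg7* (0.21) and *Gzmc* (−0.29) were not called. *Gzma*, a granzyme typical of NK cells, was the gene that was higher, at 0.91, with 61 and 56 UMIs and a ratio of −0.017 in thinned cells.

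*Gzmb* showed that sum and median can part. Its summed level was 1303 and 1381 CPM, a log2 ratio of 0.08 (0.01 to 0.16), while the median over cells was 503 and 297 CPM and it was detected in 82.4% and 67.9% of cells. These shares are not at equal depth, since the KO-labelled cells were shallower (median of 8216 against 10817 UMIs). In the library labelled KO 5 cells held 55.0% of its UMIs, against 24.2% in the library labelled WT, and without the top 2% of cells the ratio was −0.28. In myeloid cells *Gzmb* was detected in 24.8% and 9.18%, the lower share again under the KO label.

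The granzymes *Gzmd*, *Gzme*, *Gzmf* and *Gzmg* made up 4 of the 7 lower calls. They are rodent proteases made late in activated killer cells, and their genes lie side by side with *Gzmc*, *Gzmn* and *Gzmb* on the minus strand of mouse chromosome 14, within 56117626 to 56262260 of GRCm38 by the GENCODE annotation, whose gene ends differ from the RefSeq starts for some of them, in the order *Gzme*, *Gzmd*, *Gzmg*, *Gzmn*, *Gzmf*, *Gzmc* and *Gzmb*. Their transcripts are near copies of each other, so reads may have been split or lost between them, and their sum is the safer measure. Under the WT label the sum was 2858 UMIs, or 890 CPM (857 to 923), and under the KO label 166 UMIs, or 106 CPM (90.3 to 123). Without the 1 cell with most of them in each library, it was 548 and 66.6 CPM. Singly, *Gzmd* was at 233 and 27.4 CPM (−3.07), *Gzme* at 152 and 44.6 CPM (−1.76, but −0.70 with a myeloid limit of 2), and *Gzmf* at 371 and 33.8 CPM (−3.45, and −4.06 without the deepest cells). The ratio of *Gzmd* ran from −2.31 in thinned cells and −2.39 with a myeloid limit of 2 to −4.23 without the deepest cells and −4.92 without its top 2% of cells. *Gzmg* had 430 UMIs under the WT label and 0 under the KO label, at least 70.1-fold lower, though 97.2% of the 430 lay in 5 cells. *Gzmd* was also among the 33 genes past the fold in all 6 classes, with 1 UMI against 0 in checkpoint-negative cells and 2 against 0 in checkpoint-low cells.

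The likeness of the genes is shown by the stretch before the transcription start, printed here because these genes lie side by side and 4 of them were lower together in the sums. Each line gives 88 bases from RefSeq (GRCm38.p6, minus strand, 5′ to 3′, no base of an exon), and the capitals mark an 8-base word that is TGACGTCA or differs from it at 1 position. The windows are Gzmc at chr14:56234677-56234764, Gzmd at chr14:56132617-56132704, Gzme at chr14:56120650-56120737, Gzmf at chr14:56211452-56211539 and Gzmg at chr14:56159619-56159706.
Gzmc: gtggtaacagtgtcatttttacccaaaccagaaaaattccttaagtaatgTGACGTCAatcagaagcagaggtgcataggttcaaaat
Gzmd: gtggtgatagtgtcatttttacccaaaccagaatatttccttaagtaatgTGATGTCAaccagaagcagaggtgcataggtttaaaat
Gzme: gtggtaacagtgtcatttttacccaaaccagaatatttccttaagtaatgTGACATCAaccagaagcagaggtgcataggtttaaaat
Gzmf: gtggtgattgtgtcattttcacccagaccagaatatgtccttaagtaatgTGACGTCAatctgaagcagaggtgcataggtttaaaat
Gzmg: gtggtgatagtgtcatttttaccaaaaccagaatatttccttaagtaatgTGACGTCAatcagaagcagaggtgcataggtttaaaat

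Any pair of these windows shared 78 to 85 of 88 bases (88.6 to 96.6%). Counted from the RefSeq transcription start, the first base of the word lay 57 bases before *Gzmc*, 61 before *Gzmd*, 62 before *Gzme*, 82 before *Gzmf* and 77 before *Gzmg*. TGACGTCA, which reads the same on both strands, was found in 508 of 32851 promoter windows (1.55%), each of the 250 bases before a start. TGATGTCA and TGACATCA, which are each other's reverse complement, were found in 962 (2.93%). TGACGTCA was absent from the windows of *Gzmb* and *Gzmn*, and whether these held TGATGTCA or TGACATCA was not looked up. The matches describe letters and not the binding of a factor.

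**Figure D4:**
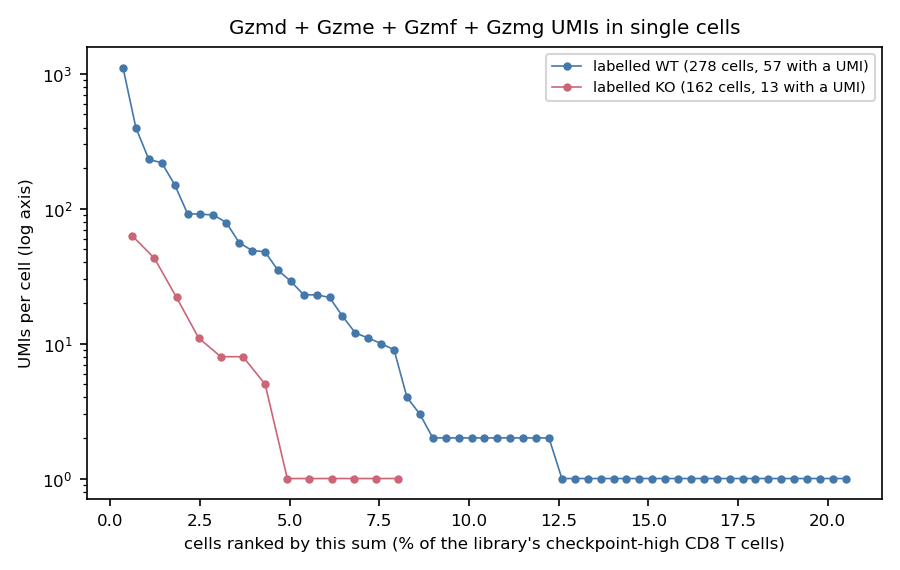
UMIs of *Gzmd*, *Gzme*, *Gzmf* and *Gzmg* together in each checkpoint-high cell (y axis, log scale), with the cells of each library ranked from high to low and the x axis in percent of cells. Of 278 WT-labelled cells 57 have a UMI and the highest has 1113, and of 162 KO-labelled cells 13 have a UMI and the highest has 63.

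The plot of cells ranked by these granzymes shows that a minority made nearly all of the transcript. In the library labelled WT 57 cells (20.5%) had a UMI, 21 (7.55%) had at least 10, and 5 cells held 73.9% of the UMIs. In the library labelled KO 13 cells (8.02%) had a UMI and 4 (2.47%) had at least 10. In myeloid cells 9.17% and 1.90% had a UMI, so single UMIs in either library cannot be told apart from free RNA. The sum was at 390 and 244 CPM in cycling cells, 292 and 2.79 CPM in NK cells, 26.9 and 1.88 CPM in myeloid cells, and 3.63 and 3.02 CPM in checkpoint-negative cells. Few cells carried these sums too. In KO-labelled cycling cells 1 cell held 387 of 489 UMIs, and without it the level was 51.8 CPM, while the 145 UMIs of WT-labelled NK cells lay in 4 cells.

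The cells with at least 10 of these UMIs, 21 under the WT label and 4 under the KO label, were set beside the other checkpoint-high cells. This is a description, since they were picked by value. The picked cells were rich in further granule genes. Whether *Gzmc* shares reads with the genes used to pick them was not tested. *Gzmc* was at 2497 against 89.3 CPM in the library labelled WT and 4362 against 84.4 CPM in the library labelled KO, *Gzmb* at 4086 against 893 and 5621 against 1127 CPM, and *Prf1* at 347 against 111 and 214 against 64.1 CPM. The picked cells were poorer in *Ccl5*, at 1908 against 6337 CPM and 6464 against 13037 CPM, and in *Tox*, at 114 against 262 CPM and 67.5 against 242 CPM. *Cxcr6* was close, at 606 against 524 CPM and 720 against 548 CPM. These cells were deeper, with medians of 19981 against 10193 UMIs and 22210.5 against 7940.5 UMIs, and doublets were not tested.

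*Klrc2*, *Klrc1* and *Klre1*, killer lectin receptors of NK and activated CD8 T cells, were lower in the library labelled KO. Of 7 such receptors tested, 3 were called lower and 0 higher, with a median log2 ratio of −0.46. *Klrc2* (NKG2C, the activating partner of CD94) was at 119 and 20.4 CPM, a ratio of −2.52 (−3.11 to −2.02), and was detected in 57.9% and 16.0% of cells. In cells thinned to 4900 UMIs it was detected in 38.2% and 7.46%, and in unthinned myeloid cells in 2.14% and 0.633%. *Klrc1* (NKG2A, the inhibitory partner) was at 257 and 164 CPM, a ratio of −0.65 (−0.86 to −0.44), and *Klre1* at 167 and 96.8 CPM, a ratio of −0.78, or −0.43 when the rule was applied to thinned cells.

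Other classes of cells did not show one direction for these receptors. *Klrc2* was at −2.03 in cycling, 0.81 in checkpoint-negative and 1.49 in NK cells. *Klrc1* was at −0.03, 0.35 and 1.39 in the same classes, and *Klre1* at 0.32 in cycling and 1.20 in checkpoint-negative cells. *Klrd1* (CD94), the shared partner chain, was at −0.15 and *Klrk1* (NKG2D) at −0.25 in checkpoint-high cells, neither called. *Klrc1* and *Klrc2* share long stretches of sequence, so reads may have been split between them.

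**Figure D5:**
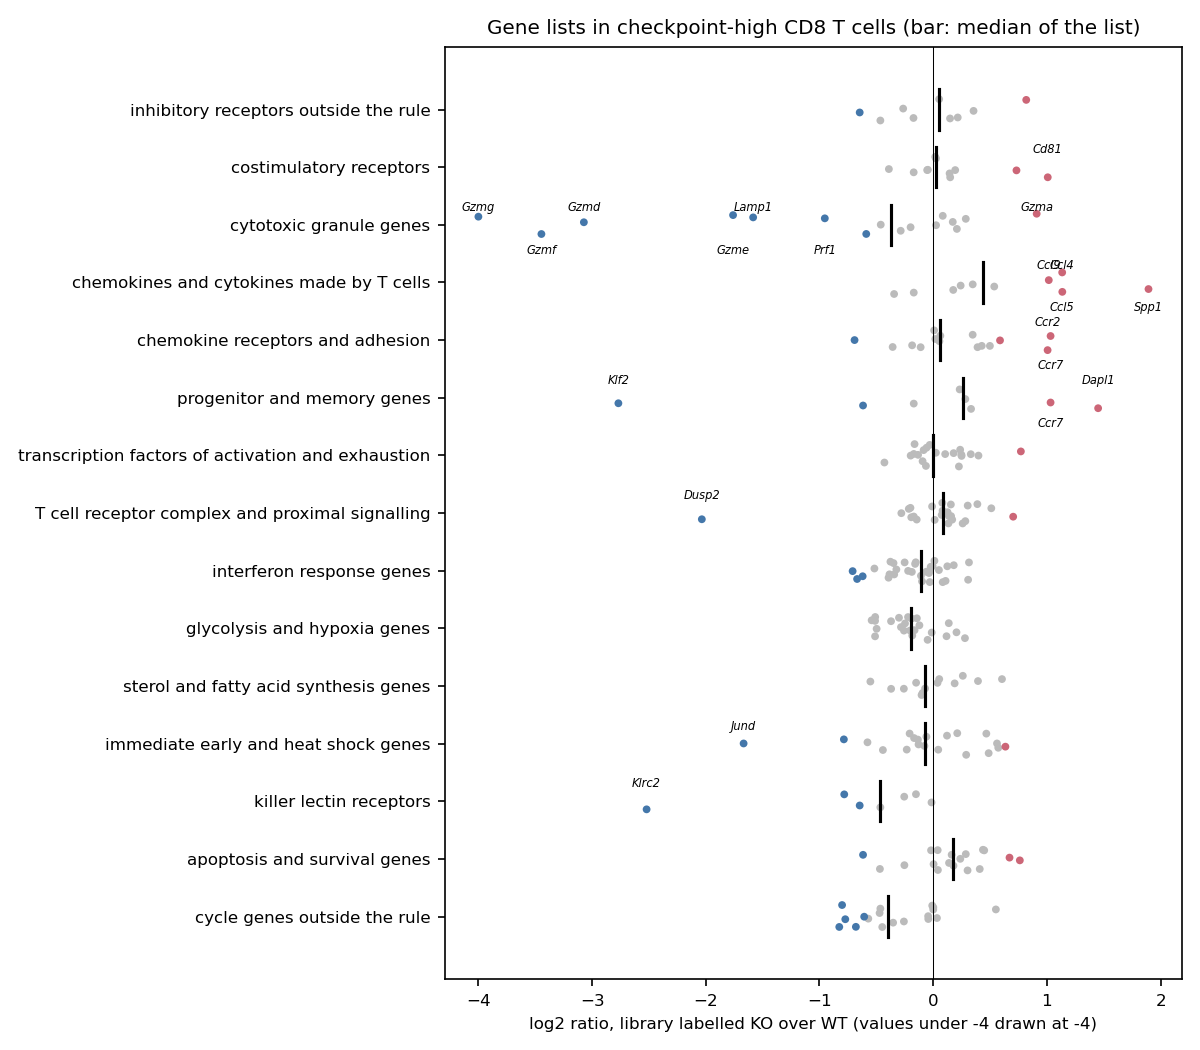
Log2 ratio of CPM in checkpoint-high cells, library labelled KO over library labelled WT, for each tested gene of the gene lists (1 row per list). Red points are called higher, blue points called lower, grey points not called, and the bar is the median of the list; *Gzmg*, with 0 UMIs under the KO label, is drawn at −4. Lists that lie mostly to the right include chemokines, chemokine receptors and adhesion, T cell receptor, and apoptosis genes. Lists that lie mostly to the left include granule genes, killer lectin receptors, and cycle, glycolysis and interferon response genes.

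The plot of ratios by gene list sets these groups beside the rest. Of 24 glycolysis and hypoxia genes and 13 sterol and fatty acid synthesis genes tested, 0 were called in either direction, with medians of −0.20 and −0.07. Of 31 interferon response genes, 0 were higher and 3 lower, *Ifit1* (−0.67), *Ifi27l2a* (−0.62, but −0.38 thinned) and *Rtp4* (−0.71). Without the deepest cells, those above the 95th percentile of UMIs, *Ifit1* was at −0.52 and *Rtp4* at −0.56, short of the fold, while *Ifit1* was at −1.60 in thinned cells and −1.35 without cells with dendritic cell markers. Of 18 cycle genes outside the rule, 0 were higher and 5 lower, with a median of −0.40. They were *Mcm2* (−0.68), *Mcm3* (−0.77) and *Mcm7* (−0.83), subunits of the replication helicase, and *Tyms* (−0.80) and *Dut* (−0.61), enzymes of thymidine nucleotide supply. When the rule was applied to thinned cells, *Tyms* was at 0.087 and *Mcm2* at −0.30, and *Dut* was at −0.57 without cells with dendritic cell markers. No UMI of the rule's division genes was found in 51.1% of the WT-labelled and 67.3% of the KO-labelled checkpoint-high cells. What part this had in the ratios was not tested.

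Receptors for position and survival moved singly. Of 15 chemokine receptor and adhesion genes, 3 were higher, *Ccr2* (1.01), *Ccr7* (1.03) and the integrin chain *Itgal* (0.59), and 1 was lower, *Cx3cr1* (−0.69, and −1.39 in thinned cells). *Ccr7* is also a marker of migrating dendritic cells, and its ratio was 0.14 with a myeloid limit of 2 UMIs, while that of *Itgal* was 0.23 in thinned cells. Of 8 progenitor and memory genes tested, 2 were higher and 2 lower. *Klf2* had 118 UMIs under the WT label and 8 under the KO label, a ratio of −2.77, and was also lower in checkpoint-negative cells (−1.62), *Bcl2* was at −0.62, and *Dapl1* was higher at 1.45. For *Dapl1* the ratio was 0.38 with a myeloid limit of 2 UMIs, 0.041 in thinned cells and 2.85 without the top 2% of cells, and for *Bcl2* it was −0.27 in thinned cells. Of 18 apoptosis and survival genes, 2 were higher, *Mcl1* (0.67) and *Gadd45b* (0.76), and 1 lower, the same *Bcl2*. Neither higher call held throughout, with *Mcl1* at 0.18 in thinned cells and *Gadd45b* at 0.36 with a myeloid limit of 2. Of 25 genes of the T cell receptor complex and its signalling, 1 was higher, *Cd6* (0.70, but 0.58 with cells weighted equally), and 1 lower, the phosphatase gene *Dusp2* (−2.03). Of 20 immediate early and heat shock genes, *Btg2* was higher (0.64, but 0.42 with a myeloid limit of 2 and 0.46 in thinned cells) and *Jund* (−1.67) and *Hsph1* (−0.79) were lower. *Jund* and *Dusp2* were past the fold in all 6 classes of cells. None of the 12 serotonin and monoamine genes in the table reached 100 UMIs.

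Several of the largest ratios between the libraries rested on few cells or belonged to genes typical of other cell types, whose part was not tested. Among the 10 largest in the higher direction, besides genes given above, were *Il1b* (1.95, but −0.31 when cells with 2 or more myeloid UMIs were left out, and 0.23 without its top 2% of cells), *Tnip3* (1.95), *Lockd* (1.79), *Marcksl1* (1.64, but 0.97 without cells with dendritic cell markers), *Odc1* (1.48) and *Serpine2* (1.24, but 0.59 without the deepest cells). *Odc1* makes the first step of polyamine synthesis. In the lower direction, 4 of the 10 were hemoglobin genes, and 1 WT-labelled cell held 7154 of their 7200 UMIs, which left 46 against 18 in the library labelled KO. *S100a8* (−4.65) and *S100a9* (−4.25) are genes of the neutrophil list, which differed in the same direction. *Ctse*, a protease gene, had 198 UMIs against 0, at least 32.3-fold lower, and *Gdpd3* was at −4.79, or −6.94 without its top 2% of cells. *S100a8*, *S100a9*, *Ctse* and *Gdpd3* were among the 33 genes past the fold in all 6 classes, and in cycling cells *Ctse* was at 49.9 against 0.499 CPM and *Gdpd3* at 54.5 against 0.998 CPM. In thinned cells the ratio was −1.43 for *S100a8* and −1.49 for *S100a9*.

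Checkpoint level also varied among the cells, and they were split within each library into 3 groups of near equal size by the summed CPM of the 3 receptors. The split used a measured value, so the values are a description. *Cxcr6* was higher in the top than in the bottom group of both libraries, from 415 to 675 CPM under the WT label and from 408 to 763 CPM under the KO label. *Ccl5* went from 4566 to 7901 CPM and from 8816 to 23163 CPM, and *Prf1* from 70.7 to 168 and from 49.6 to 85.8 CPM. *Prf1* was highest in the middle group, at 183 and 89.5 CPM. The glycolytic gene *Gapdh* was nearly level, with log2 ratios of top over bottom of 0.10 and −0.10.

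For other effector genes the libraries parted. *Ccl4* went from 793 to 902 CPM under the WT label, with 1505 CPM in the middle group, and from 1074 to 5001 CPM under the KO label. *Ccl3* went from 860 to 697 CPM, with 1835 CPM in the middle group, and from 897 to 3263 CPM. *Gzmb* went from 718 to 1393 CPM under the WT label, with 1762 CPM in the middle group, and from 1661 to 767 CPM under the KO label. Some of these courses rested on few cells. The 2 cells with most UMIs of the gene were then left out of each group. Under the WT label *Gzmb* was at 634, 1436 and 1043 CPM in the bottom, middle and top group. Under the KO label it was at 636, 853 and 600 CPM. *Ccl3* then turned under the WT label, from 464 to 570 CPM, with 1107 CPM in the middle group. It stayed higher in the top than in the bottom group under the KO label, at 2379 against 619 CPM. *Ccl4* was then at 376 and 747 CPM in the bottom and top group under the WT label, with 1058 CPM in the middle group. Under the KO label it was at 671 and 3219 CPM. Whether these differences between the libraries exceed the spread between animals was not tested, since each library is 1 pool, and depth fell toward the top group in the library labelled KO (medians of 9747, 8492 and 7046.5 UMIs) but not steadily in the library labelled WT (11098, 12002 and 9207 UMIs).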

How the data were processed

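Live CD45.2+ cells of 2 libraries were measured by Chromium 3′ scRNAseq. Per the submitters' processing notes, reads were counted with Cell Ranger on mm10, and the study filtered cells (at least 300 UMIs, at least 100 genes, at most 5% mitochondrial UMIs). The labels call the deposited table raw counts, while its values are the natural log of 1 plus UMIs scaled to 10000 per cell. After the log was undone, values divided by the smallest nonzero one of the cell were whole UMIs in 100% of cases (tolerance 0.01). The barcode suffix named in the sample descriptions gave each cell its library. The table held no T cell receptor V genes, which were not analysed here. A named gene is not reported here.

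UMIs were summed over cells and given as CPM with exact Poisson intervals, ratios with exact conditional binomial intervals, and shares with Clopper-Pearson intervals. Log2 ratios used 0.5 added UMIs, and a group at 0 was set to 3 counts for bounds. There was 1 library per genotype and so no test. For the comparison of the libraries, counts were simulated from the same Poisson model that the intervals assume. Of the intervals of 4275 genes, 95.8% contained the simulated ratio. No spread between cells was simulated, so the intervals were not tested against that spread. Named genes were the 10 with the largest ratios each way between libraries, the 15 with the largest mean ratios each way against other CD8 T cells, in each list the 4 with most UMIs and the called ones, and the genes of the rule. Further genes named were chosen from the lists after their values were seen. The cells, lists and rules were chosen with earlier results of these data known. The comparison with cycling cells, the removal of each gene's top cells and of cells with dendritic cell markers, the split by checkpoint level, and the granzyme cells were chosen after the data were seen. The other alternatives changed the UMI limits, depth, weighting, scale, minimum and fold. No doublets were removed. Python 3.11.15, numpy 2.4.6, scipy 1.17.1, pandas 2.3.3 and matplotlib 3.10.9 were used.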

Additional observations from a re-analysis of the deposited data

Results flagged for a closer look

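*Gzma* differed in direction between classes of CD8 T cells: the log2 ratio, KO label over WT label, was 0.91 in checkpoint-high cells (61 and 56 UMIs) and −2.93 in checkpoint-negative cells (209 and 82 UMIs). It was singled out because the intervals of the ratios lay on opposite sides of 0, among 65 genes compared in this way. The difference itself was not tested. In checkpoint-high cells the ratio was −0.017 after thinning and 0.36 without the 2% of cells with most UMIs of the gene.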

How the results depend on the processing

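No paired analysis was possible because each genotype had 1 library. The V gene alternative was not run, since the table held no V genes. The cause of the changes below was not tested, apart from those that follow from fewer UMIs, genes or cells.

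The share of checkpoint-high cells stayed lower in the library labelled KO under each alternative. Of all cells it was 9.91% and 4.79% with cells thinned to 3000 UMIs, 6.19% and 2.81% at 2000 UMIs, 8.65% and 4.94% with a myeloid limit of 2 UMIs, 5.94% and 4.14% with a cycling limit of 1 UMI, and 5.17% in the library labelled KO with a checkpoint threshold of 5 UMIs. Of noncycling CD8 T cells it was 45.1% and 24.8% at 3000 UMIs, 29.8% and 17.7% at 2000, 60.4% and 25.5% with a threshold of 5, and 56.1% and 25.4% with a cycling limit of 1.

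Of the 117 genes higher and 180 lower in the library labelled KO, thinning to 3000 UMIs (1305 genes tested, 42 KO-labelled cells left out) gave 33 and 51, with 12 and 26 of the original calls kept. A myeloid limit of 2 gave 72 higher and 152 lower, with 46 and 109 of the original calls kept. Minimums of 20, 50 and 300 UMIs gave 329, 217 and 22 higher. A minimum of 20 gave 350 lower and of 300 gave 50 lower, and a 2-fold rule gave 24 and 54. Without the top 2% of cells of each gene, 72 and 142 were still called, and 117 and 178 kept their sign. Against checkpoint-negative cells, 465 higher and 125 lower became 130 and 45 thinned, 245 and 222 centred, 234 and 251 without ribosomal and mitochondrial genes, 250 and 48 at a minimum of 300, 219 lower at 20, 1019 and 243 at 1.5-fold, and 79 and 49 with checkpoint-low cells as comparator. Against cycling cells, 31 higher and 307 lower became 11 and 57 thinned, 11 and 160 at a minimum of 300, 179 and 570 at 1.5-fold, and 51, 47 and 18 higher at minimums of 20 and 50 and a myeloid limit of 2. Of the original 31 and 307 calls, thinning kept 2 and 51, and the myeloid limit of 2 kept 12 and 209.

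Directions were reversed for *Il1b* (−0.31, myeloid limit of 2), *Hba-a2* (1.03) and *Hba-a1* (1.87, both without the top cells), *Gzma* (−0.017) and *Tyms* (0.087, both thinned), and, against cycling cells, *Il4i1* (−0.42 thinned, −1.90 without cells with dendritic cell markers) and *Ifi205* (−0.51 with a myeloid limit of 2, −0.82 without those cells). With 162 cells at a median of 8216 UMIs, genes under 100 UMIs in all were not compared.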
